A study of Saccharomyces cerevisiae with 8 samples.

Results

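The *DAN* and *TIR* genes of budding yeast (*Saccharomyces cerevisiae*) encode serine-rich and threonine-rich mannoproteins of the cell wall. The 6 genes *DAN1*, *DAN4*, *TIR1*, *TIR2*, *TIR3* and *TIR4* were taken by symbol from 5449 named genes measured on 8 Affymetrix arrays. Each of the 6 was measured by 1 probe set, and none of these carried the suffix (s_at or x_at) that marks possible matches to several transcripts. The genes were picked with results of these data in view, *DAN1* in particular for its difference between the strains and its heat response, so the group was in part chosen on the values given below and these describe it rather than support it. Total RNA came from 4 groups of 2 arrays: the temperature-sensitive *met30-6* strain (py283) after 1 h at 35 °C or after 1 h at 25 °C, and the strain PY1 after 1 h at 35 °C or after 1 h at 25 °C. All cultures were grown in YPDA medium at 25 °C to mid-log phase, and the labels call this temperature permissive. Met30 is the F-box protein of a ubiquitin ligase that restrains Met4, the activator of sulfur amino acid genes, and the study compared temperatures for transcripts that mark Met30 inhibition. The labels give PY1 by name alone, so the *met30-6* allele and any other difference between the strains cannot be told apart. The labels do not say that the arrays of a group came from separate cultures, and p-values therefore measure only the spread between these arrays, which may be technical.

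Wild-type yeast keeps the *DAN* and *TIR* genes largely repressed in air and turns them on when oxygen is lost, at the time when the wall proteins Cwp1 and Cwp2 of aerobic cells decline. Heme-dependent repression acts through Rox1 and Mot3 with the Tup1-Cyc8 corepressor, and activation acts through Upc2, a zinc cluster factor that also controls sterol genes. *TIR1*, *TIR2* and *TIR4* are in addition known as genes of cold shock, and *DAN1* has been linked to sterol uptake in cells without oxygen.

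Values are the deposited log2 expression values, read as base 2 from their range. Array medians lay between 10.97 and 11.09, and Pearson's r between replicate arrays ran from 0.9927 to 0.9951. Spread grew as signal fell, with a median SD within groups of 0.429 for genes averaging under 6 and 0.0649 for genes between 10 and 12. A group mean under 6 is called dim, because no detection call was analysed here. A gene was called where limma gave an adjusted p (Benjamini-Hochberg over all 5449 genes) under 0.05. Of 8 mating-type marker genes, 3 were called higher in *met30-6* at 35 °C, where 34.0% of all genes were, and 0 were called between the strains at 25 °C in limma (0 at an unadjusted p under 0.05), or 1 with replicate 2 of *met30-6* at 25 °C left out. The list held markers of both mating types, a and alpha. The 3 called at 35 °C were all markers of type a, and the same 3 were called lower with heat in PY1, where 10.4% of all genes were. Fewer markers were called in PY1 heat when replicate 1 of PY1 at 35 °C was left out. RNA here is from whole cultures, so fewer cells that express a gene and less RNA per cell cannot be told apart.

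*DAN1* was picked for its pattern, so it is described with no test and left out of the counts of called genes here. At 25 °C 3 of the other 5 genes, *TIR4*, *TIR2* and *TIR1*, were higher in *met30-6* than in PY1 and 0 were lower, whereas 12.9% of all genes were called in this comparison, 6.94% higher and 5.95% lower. All 5 differences were above 0, with a median of 0.76 on the log2 scale against 0.0055 over all genes. The called genes were 1.52-fold to 1.84-fold higher, and *DAN1* was 17.3-fold higher. At 35 °C, 4 of the 5 were called higher in *met30-6*, where 66.7% of all genes were called, 34.0% higher and 32.7% lower. The median of the 5 at 35 °C was 0.46 against 0.019 over all genes.

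**Figure D1:**
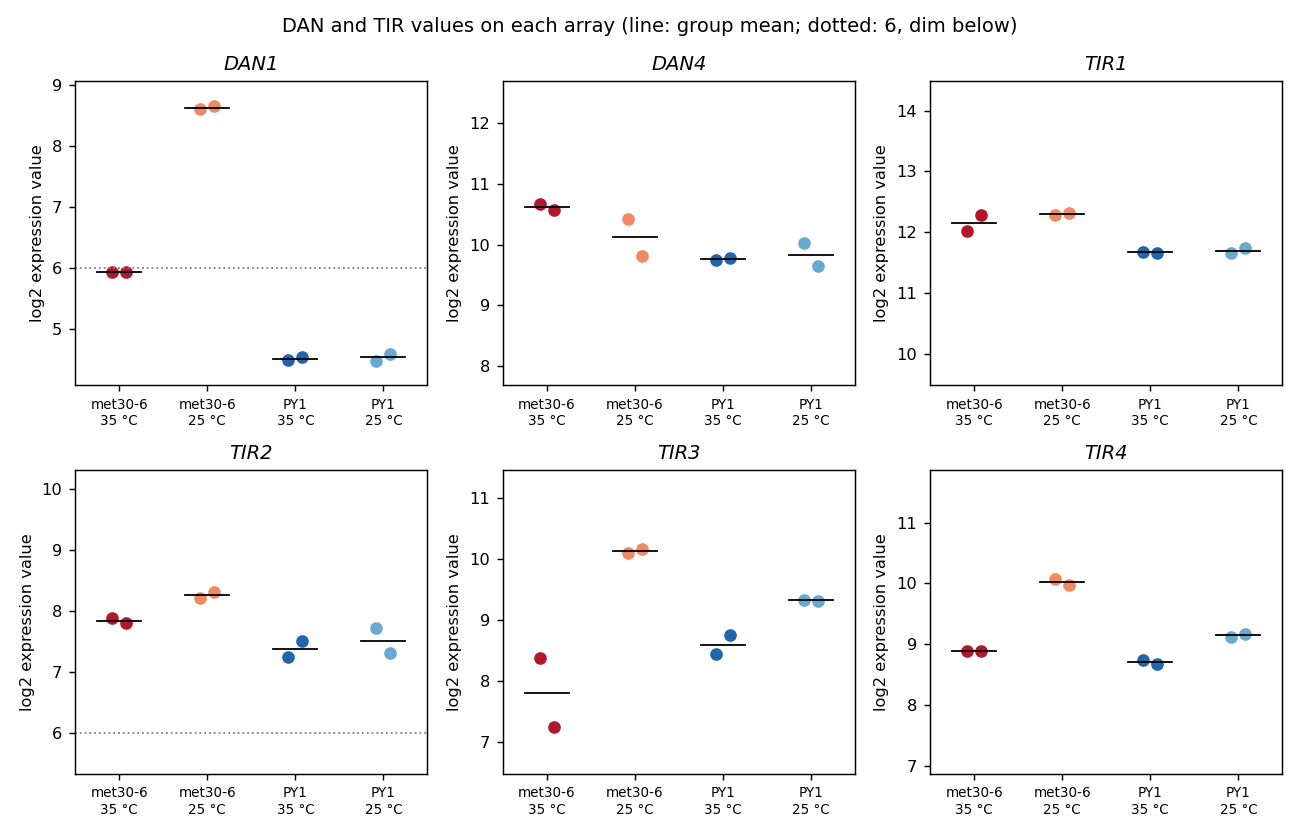
Log2 expression value of each of the 6 genes on every array, with points for arrays, a black line for the group mean and each panel spanning 5 log2 units. *DAN1* lies above 8.6 on both *met30-6* arrays at 25 °C and below 4.6 on all 4 PY1 arrays, and *TIR3* shows the widest pair, 8.38 and 7.23, in *met30-6* at 35 °C.

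*DAN1* (YJR150C), a gene whose expression in wild-type cells is a hallmark of growth without oxygen, read 5.93 and 5.93 in *met30-6* at 35 °C, 8.61 and 8.66 in *met30-6* at 25 °C, 4.48 and 4.54 in PY1 at 35 °C, and 4.47 and 4.58 in PY1 at 25 °C. Both *met30-6* groups lay above both PY1 groups without overlap, and the PY1 groups overlapped each other. The strain difference at 25 °C was 4.11 ± 0.06 (SE). Its rank of 6 among the increases of all 5449 genes restates the pick, because the gene was chosen in part for its strain difference. Heat lowered *DAN1* in *met30-6* by 2.70 ± 0.06 on the log2 scale, a 6.52-fold fall. In PY1 the heat difference was −0.02 ± 0.06, and −0.36 with quantile normalisation. The fall did not bring *met30-6* to the PY1 level: at 35 °C it remained 1.42 ± 0.06 higher, or 2.68-fold. Over the alternatives this difference at 35 °C ran from 1.08 to 1.49. The heat response differed between strains by −2.69 ± 0.08. Means were dim in PY1 at both temperatures and in *met30-6* at 35 °C (5.93), so the sizes of these folds are uncertain. The *DAN1* replicates nevertheless differed by little, with an SD of 0.0014 to 0.0806 within groups, where genes averaging under 6 had a median of 0.429. The SE given above draw on that small spread. With an intensity trend in the variance, the SE was 0.24 for heat in *met30-6* and 0.34 for the interaction. Quantile normalisation gave −3.23 and −2.87 for these differences.

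*DAN4* (YJR151C), the gene next to *DAN1* in the R64 gene table, had a different profile. It read 10.68 and 10.57 in *met30-6* at 35 °C, 10.43 and 9.81 in *met30-6* at 25 °C, 9.74 and 9.78 in PY1 at 35 °C, and 10.03 and 9.64 in PY1 at 25 °C. The *met30-6* arrays at 35 °C were the highest, and PY1 at 25 °C overlapped both *met30-6* at 25 °C and PY1 at 35 °C. At 35 °C the *met30-6* arrays exceeded those of PY1 in *DAN4* by 0.86 ± 0.21 (SE; limma adjusted p = 0.00867), with no call at 25 °C (0.29 ± 0.21, limma adjusted p = 0.429). Its heat difference in *met30-6* was 0.50 ± 0.21 (limma adjusted p = 0.0661) and its interaction 0.58 ± 0.29 (limma adjusted p = 0.147). The *met30-6* arrays at 25 °C moved both: the values were 0.81 (adjusted p = 0.0057) and 0.88 (adjusted p = 0.0172) with replicate 1 left out, and 0.19 (adjusted p = 0.324) and 0.27 (adjusted p = 0.335) with replicate 2 left out. The heat difference was also called with an intensity trend (adjusted p = 0.016), with dim genes removed (adjusted p = 0.0459) and with the replicate number as a block (adjusted p = 0.0324). Over all alternatives those adjusted p ran from 0.0057 to 0.324 for heat and from 0.0172 to 0.344 for the interaction. *DAN4* heat in PY1 was −0.07 ± 0.21 and was not called.

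*TIR1* (YER011W), a cold-shock gene and a wall protein gene needed for growth without oxygen, was bright in all groups. It read 12.02 and 12.28 in *met30-6* at 35 °C, 12.29 and 12.32 in *met30-6* at 25 °C, 11.68 and 11.66 in PY1 at 35 °C, and 11.65 and 11.74 in PY1 at 25 °C. All 4 *met30-6* arrays exceeded all 4 PY1 arrays. The strain difference was 0.48 ± 0.09 at 35 °C (SE; limma adjusted p = 0.00259) and 0.61 ± 0.09 at 25 °C (limma adjusted p = 0.00573). Heat differences of *TIR1* were −0.15 ± 0.09 in *met30-6* (limma adjusted p = 0.165) and −0.03 ± 0.09 in PY1 (limma adjusted p = 0.845), and the interaction was −0.13 ± 0.12 (limma adjusted p = 0.439). The *met30-6* heat difference was called with replicate 2 at 35 °C left out (−0.28, adjusted p = 0.0163) and with quantile normalisation (−0.30, adjusted p = 0.0301), within 0.0163 to 0.794 over its alternatives.

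*TIR2* (YOR010C), a further cold-shock gene, read 7.88 and 7.80 in *met30-6* at 35 °C, 8.22 and 8.31 in *met30-6* at 25 °C, 7.25 and 7.51 in PY1 at 35 °C, and 7.72 and 7.30 in PY1 at 25 °C. As with *TIR1*, every *met30-6* array was above every PY1 array, here by a narrow margin (7.80 against 7.72). *TIR2* was higher in *met30-6* by 0.46 ± 0.15 at 35 °C (SE; limma adjusted p = 0.027) and by 0.76 ± 0.15 at 25 °C (limma adjusted p = 0.0178), and it fell with heat in *met30-6* by 0.43 ± 0.15 (limma adjusted p = 0.0352). In PY1 the heat difference was −0.13 ± 0.15 (limma adjusted p = 0.528), and the interaction of −0.30 ± 0.21 was not called (limma adjusted p = 0.273).

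Several *TIR2* calls changed when a single array was left out, which leaves 1 array in that group. The call at 35 °C ended when replicate 1 of PY1 at that temperature was left out (0.33), when either *met30-6* array was (0.42 for replicate 1, 0.50 for replicate 2), with adjusted p up to 0.146, and with quantile normalisation (0.21, adjusted p = 0.0791). That at 25 °C ended when either *met30-6* array was left out (0.80 for replicate 1 and 0.71 for replicate 2, adjusted p = 0.0634 and 0.088, within 0.00667 to 0.088 over the alternatives). The *TIR2* fall in *met30-6* ended when any of its 4 arrays was left out, at −0.47 for replicate 1 and −0.38 for replicate 2 of 25 °C, and at −0.47 for replicate 1 and −0.39 for replicate 2 of 35 °C (adjusted p up to 0.132, and 0.0535 with the replicate number as a block). Its interaction was called when replicate 1 of PY1 at 25 °C was left out (−0.51, adjusted p = 0.0402) and with quantile normalisation (−0.40, adjusted p = 0.0374), within 0.0374 to 0.66. Quantile normalisation also called the *TIR2* heat difference in PY1 (−0.47, adjusted p = 0.00798, within 0.00798 to 0.998).

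*TIR4* (YOR009W), the neighbour of *TIR2* and likewise a cold-shock gene, fell with heat in both strains. It read 8.89 and 8.89 in *met30-6* at 35 °C, 10.08 and 9.98 in *met30-6* at 25 °C, 8.75 and 8.68 in PY1 at 35 °C, and 9.12 and 9.17 in PY1 at 25 °C. None of the groups overlapped, and *met30-6* at 25 °C was the highest. The fall was 1.14 ± 0.06 in *met30-6* (SE; limma adjusted p = 8.03e-06), or 2.20-fold, and 0.44 ± 0.06 in PY1 (limma adjusted p = 0.00195), or 1.35-fold, and these falls differed by −0.70 ± 0.08 (limma adjusted p = 0.000698). At 25 °C *TIR4* was 0.88 ± 0.06 higher in *met30-6* (limma adjusted p = 0.00014). At 35 °C it was 0.18 ± 0.06 higher (limma adjusted p = 0.0299), and that call ended when any array at 35 °C was left out, at 0.21 for replicate 1 and 0.15 for replicate 2 of PY1 and at 0.18 for each replicate of *met30-6*, with adjusted p from 0.0515 to 0.141. It also ended with an intensity trend in the variance (adjusted p = 0.0849) and with quantile normalisation (0.094, adjusted p = 0.262), within 0.0157 to 0.262 over all alternatives.

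*TIR3* (YIL011W), whose product is required for growth without oxygen, had the widest spread. It read 8.38 and 7.23 in *met30-6* at 35 °C, 10.10 and 10.17 in *met30-6* at 25 °C, 8.44 and 8.75 in PY1 at 35 °C, and 9.33 and 9.32 in PY1 at 25 °C. No groups overlapped, and *met30-6* held both the highest group, at 25 °C, and the lowest, at 35 °C. Heat lowered it in *met30-6* by 2.33 ± 0.33 (SE; limma adjusted p = 0.000736), a 5.03-fold fall, and this call held with each array left out in turn. The heat difference in PY1 was −0.73 ± 0.33 (limma adjusted p = 0.129), and the strain differences were −0.79 ± 0.33 at 35 °C (limma adjusted p = 0.0694) and 0.81 ± 0.33 at 25 °C (limma adjusted p = 0.164). The heat responses of the strains differed by −1.60 ± 0.46 (limma adjusted p = 0.0271).

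The *TIR3* interaction was −2.18 with replicate 1 of *met30-6* at 35 °C left out and −1.03 with replicate 2 of that group left out, and it was called both times. Leaving out any other array ended the call, at −1.64 for replicate 1 and −1.57 for replicate 2 of *met30-6* at 25 °C, −1.76 for replicate 1 and −1.45 for replicate 2 of PY1 at 35 °C, and −1.61 for replicate 1 and −1.60 for replicate 2 of PY1 at 25 °C (adjusted p from 0.0501 to 0.0855). With either *met30-6* 35 °C array left out, the *TIR3* heat difference in PY1 (−0.73, adjusted p = 0.00572) and the strain difference at 25 °C (0.81, adjusted p = 0.00762) were called. An intensity trend called them too (adjusted p = 0.0405 and 0.0488), and over all alternatives their adjusted p ran from 0.00572 to 0.371 and from 0.00762 to 0.382. At 35 °C the strain difference of *TIR3* was −1.36 and called with replicate 1 of *met30-6* left out (adjusted p = 0.000458) and −0.22 with replicate 2 left out (adjusted p = 0.244). It was also called with quantile normalisation (−0.98, adjusted p = 0.0305), with an intensity trend (adjusted p = 0.0163) and with dim genes removed (adjusted p = 0.0477).

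**Figure D2:**
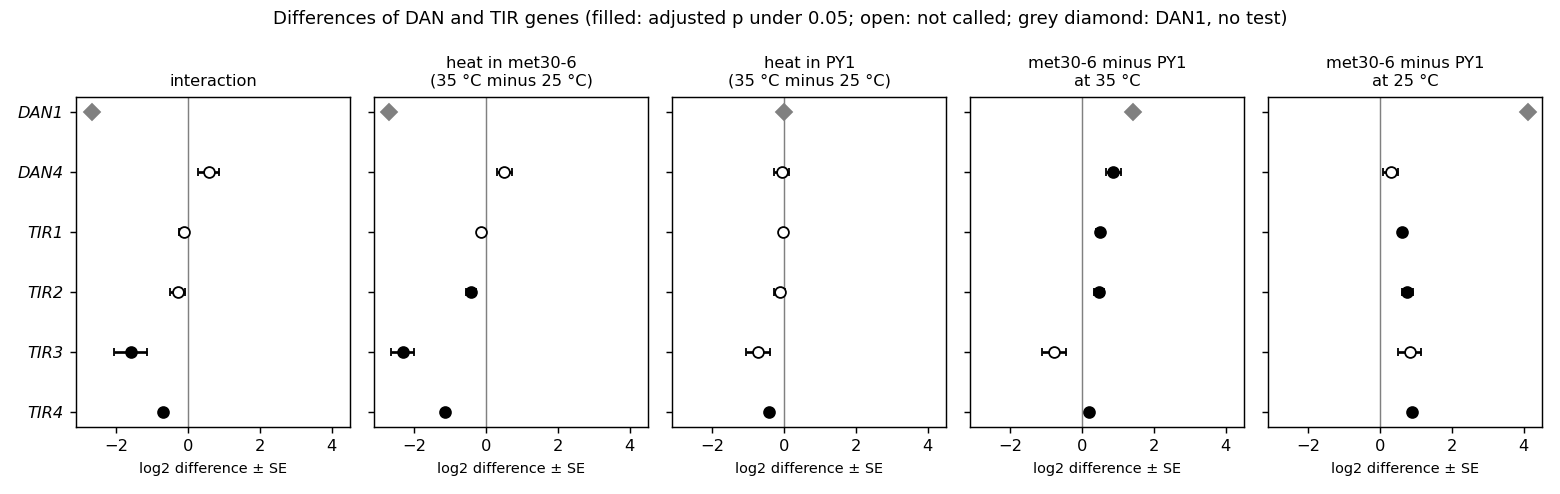
Log2 difference ± SE of each gene in the 5 comparisons, with filled circles for an adjusted p under 0.05 in limma, open circles for the others and grey diamonds for *DAN1*, which has no test; the interaction is the heat difference in *met30-6* minus that in PY1. *DAN1* has the largest values at −2.69, −2.70 and 4.11 in the interaction, in *met30-6* heat and between strains at 25 °C, and *DAN4* alone lies above 0 in the interaction (0.58) and in *met30-6* heat (0.50), neither of them called.

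Apart from *DAN1*, 3 of the 5 genes fell with heat in *met30-6* (*TIR2*, *TIR3* and *TIR4*) and 0 rose, with a median of −0.43 against 0.074 over all genes. In that comparison 68.1% of all genes were called, 38.8% higher and 29.3% lower. In PY1, 1 of the 5 fell (*TIR4*) and 0 rose, with a median of −0.13 against 0.075 over all genes, where 36.7% of all genes were called, 26.2% higher and 10.4% lower. The balance of all calls in PY1 heat depended on scaling, at 71.5% higher as deposited, 58.3% with array medians centred and 49.8% with quantile normalisation. The interaction was called for 2 of the 5 genes, both lower in *met30-6* (*TIR3* and *TIR4*), with a median of −0.30 against 0.0025 over all genes, and for 48.3% of all genes, 23.7% higher and 24.5% lower. The interaction uses all 8 arrays and so shares arrays with each other comparison.

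The genes varied together only in part. Over the 8 arrays, which fall into 4 groups and so mainly reflect 4 means, Pearson's r was 0.89 between *DAN1* and *TIR1*, 0.92 between *DAN1* and *TIR2*, 0.88 between *DAN1* and *TIR4*, and 0.80 between *TIR3* and *TIR4*. *TIR1* and *TIR3* were at 0.11. *DAN4* ran from −0.38 with *TIR3* to 0.58 with *TIR1*, and its r with its neighbour *DAN1* was 0.34. For the neighbours *TIR2* and *TIR4* it was 0.79.

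The order of the group means was the same in *DAN1*, *TIR1* and *TIR2*, with *met30-6* at 25 °C highest, then *met30-6* at 35 °C, then PY1 at 25 °C and PY1 at 35 °C. In these 3 genes the PY1 groups overlapped each other and the other neighbouring groups did not, although in *TIR1* the *met30-6* groups lay only 12.29 against 12.28 apart at their nearest arrays and their difference was not called. *TIR4* had *met30-6* at 35 °C (mean 8.89) under PY1 at 25 °C (9.15), and *TIR3* placed it lowest of all (7.81). For *TIR3* the nearest arrays of the strains at 35 °C lay close, at 8.38 against 8.44, and their difference was not called.

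Among 1096 other genes whose group means spanned at least 1 log2 unit and reached 6, the profile closest to *DAN1* over the 8 arrays was that of *PUT1* (r = 0.988), which encodes proline oxidase. It was followed by *PUT2* (0.956), of the next step of proline breakdown, and the seripauperin gene *PAU24* (0.946). *PAU24* was also among the 3 closest genes of *TIR1* (0.954) and of *TIR2* (0.951). *PUT2* was the closest to *TIR2* (0.962), and *FRE5* (0.955) and *FIT2* (0.954), both known as genes of the iron regulon, were also among those of *TIR1*. For *TIR4* the closest genes were *PRM4* (0.964), *ANB1* (0.945), an anaerobic form of the translation factor eIF5A, and *GTO3* (0.919). For *TIR3* they were *YGR035C* (0.958), *HMS2* (0.943) and *UBC11* (0.939). For *DAN4* they were the flocculin gene *FLO10* (0.976), *NUT2* (0.938) and *ATG29* (0.910). These values describe likeness over 8 arrays in 4 groups and carry no test.

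**Figure D3:**
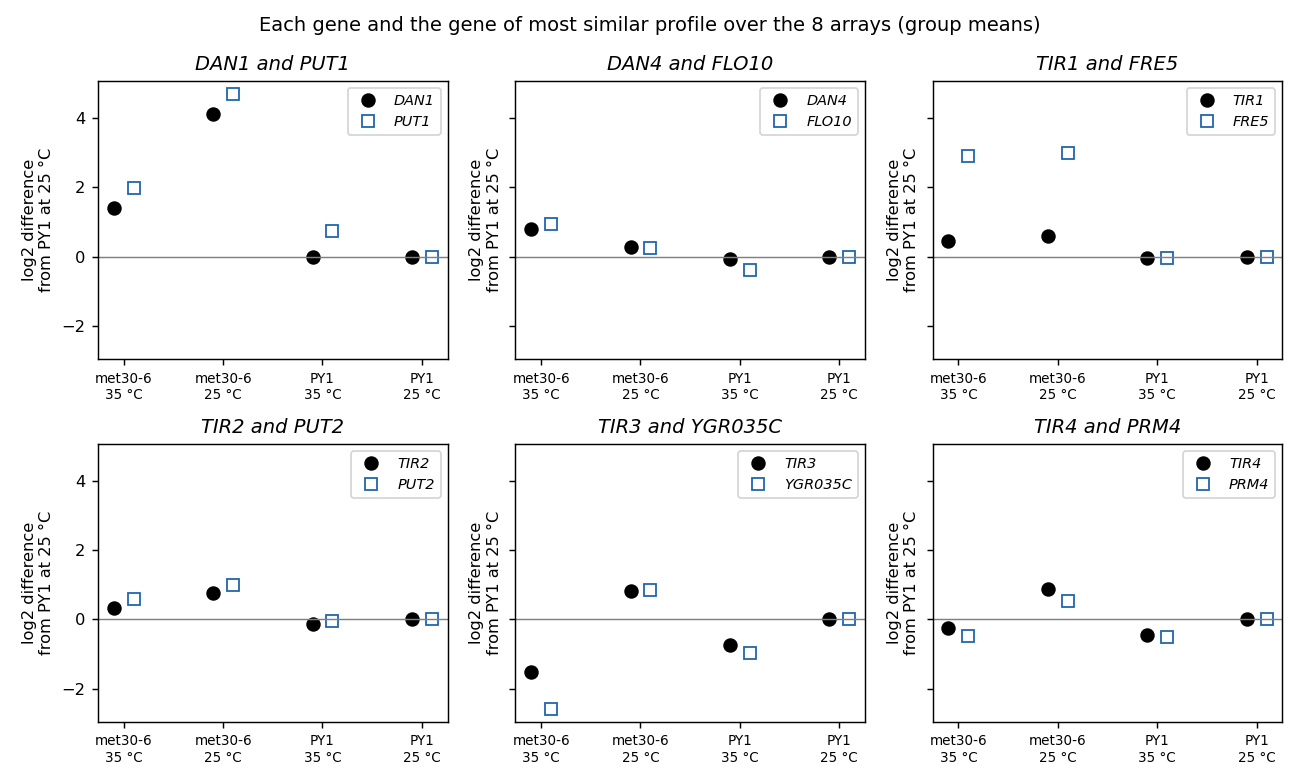
Group means of each gene (circles) and of the gene with the highest Pearson's r to it over the 8 arrays (squares), as the log2 difference from PY1 at 25 °C. *DAN1* and *PUT1* share a high mean in *met30-6* at 25 °C (8.64 and 12.67), and *FRE5* has a far wider range than *TIR1*, because r ignores the size of a change.

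Position gave a mixed picture. In the R64 gene table *DAN1* and *DAN4* adjoin, *TIR4* and *TIR2* adjoin with *AUS1* on the far side of *TIR2*, and *PDR11* lies 2 genes from *TIR3*. *AUS1* and *PDR11* encode the transporters that take up sterol in cells without oxygen. *AUS1* read 10.93 and 10.75 in *met30-6* at 35 °C, 11.16 and 11.18 in *met30-6* at 25 °C, 10.50 and 10.56 in PY1 at 35 °C, and 10.72 and 10.56 in PY1 at 25 °C. It was 0.53 ± 0.08 higher in *met30-6* at 25 °C (SE; limma adjusted p = 0.00761), a call that ended with replicate 2 of that group left out (0.51, adjusted p = 0.0503). At 35 °C *AUS1* was 0.31 ± 0.08 higher (limma adjusted p = 0.0134), which ended with replicate 1 of *met30-6* (0.22) or of PY1 (0.28) left out. *PDR11* showed a strain difference of 0.01 ± 0.08 at 25 °C (limma adjusted p = 0.956).

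*YJR149W*, on the side of *DAN1* away from *DAN4*, was higher in *met30-6* by 1.29 ± 0.07 at 35 °C (SE; limma adjusted p = 1.25e-05) and by 0.57 ± 0.07 at 25 °C (limma adjusted p = 0.00338), and it rose with heat in *met30-6* by 0.81 ± 0.07 (limma adjusted p = 9.54e-05), where *DAN1* fell. *YJR151W-A*, beyond *DAN4*, was 1.82 ± 0.40 higher in *met30-6* at 25 °C (limma adjusted p = 0.03), with dim PY1 means (5.56 at 35 °C and 5.08 at 25 °C). That call ended when any array at 25 °C was left out, at 1.49 for replicate 1 and 2.14 for replicate 2 of *met30-6* and at 2.06 for replicate 1 and 1.58 for replicate 2 of PY1. Of the 13 measured genes within 2 places of a *DAN* or *TIR* gene, 3 were called higher at 25 °C and 0 lower, with a median of −0.0015, and at 35 °C 6 were higher and 1 lower, with a median of 0.25. Of all genes 6.94% were called higher at 25 °C and 34.0% at 35 °C. *BAT2*, a branched-chain aminotransferase gene beyond *YJR149W*, rose with heat in *met30-6* by 0.38 ± 0.06 (limma adjusted p = 0.00105). *EST3*, a telomerase subunit gene near *TIR3*, rose by 0.36 ± 0.08 in *met30-6* (limma adjusted p = 0.00798), a call that ended with replicate 1 at 25 °C left out (0.28). *DAL5*, the allantoate permease gene beyond *YJR151W-A*, was 0.34 ± 0.12 higher in *met30-6* at 35 °C (limma adjusted p = 0.0408), which ended with any of 6 arrays left out, at 0.19 for replicate 2 of *met30-6* and 0.21 for replicate 2 of PY1 at 35 °C and 0.34 for each array at 25 °C.

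The seripauperin (*PAU*) genes and *TIP1* encode relatives of the *DAN* and *TIR* proteins, and *PAU* genes too are induced without oxygen. Of 25 such genes listed, 14 were measured, 11 of them by probe sets with the suffix for possible shared matches. Values of single *PAU* genes are therefore uncertain, and the 14 may not count as separate genes against the shares of all genes. Every call between strains at 25 °C, and all at 35 °C but that of *TIP1*, came from probe sets with that suffix. Between strains, 10 of 14 were higher in *met30-6* and 0 lower at 35 °C, with a median of 0.75, and at 25 °C 6 were higher and 0 lower, with a median of 0.42, where 34.0% of all genes were called higher at 35 °C and 6.94% at 25 °C. *PAU5* read 8.63 and 8.61 in *met30-6* at 35 °C, 7.75 and 7.72 in *met30-6* at 25 °C, 7.02 and 7.20 in PY1 at 35 °C, and 6.19 and 5.57 in PY1 at 25 °C. A further *PAU5* probe set, without the suffix, had group means of 8.10, 7.05, 6.73 and 5.71 in the same order of groups. *PAU5* was thus higher in *met30-6* at both temperatures and rose with heat in both strains, by 0.88 ± 0.18 in *met30-6* (SE; limma adjusted p = 0.00448) and by 1.23 ± 0.18 in PY1 (limma adjusted p = 0.00297). *PAU24* (also known as *DAN3*) was 1.20 ± 0.08 higher at 25 °C (limma adjusted p = 0.000158) and fell with heat in *met30-6* by 0.48 ± 0.08 (limma adjusted p = 0.00182). *PAU7* was 1.38 ± 0.13 higher at 35 °C (limma adjusted p = 0.000107), and *PAU3*, dim in all 4 groups, 0.92 ± 0.15 higher (limma adjusted p = 0.00142). With heat, 5 of the 14 rose and 3 fell in *met30-6* (38.8% and 29.3% of all genes), and 2 rose and 2 fell in PY1 (26.2% and 10.4% of all genes). The interaction was called higher for 2 and lower for 1 (23.7% and 24.5% of all genes). The counts moved with scaling, as quantile normalisation called 10 of the 14 in PY1 heat and 7 in the interaction, and the interaction count of 3 was 1 with either PY1 array at 35 °C, or replicate 2 of *met30-6* at 35 °C, left out.

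Other genes that yeast turns on without oxygen were also higher in *met30-6* at 25 °C in most cases. Of 15 measured, *AUS1* and *PDR11* included, 9 were higher and 1 lower, with a median of 0.31, against 6.94% and 5.95% of all genes. The 10 calls became 5 with replicate 1 of *met30-6* at 25 °C left out and 3 with replicate 2 left out. *HES1*, an oxysterol-binding protein gene, read 6.82 and 6.67 in *met30-6* at 35 °C, 8.08 and 8.32 in *met30-6* at 25 °C, 5.91 and 6.11 in PY1 at 35 °C, and 5.19 and 4.95 in PY1 at 25 °C. Its strain difference at 25 °C was 3.13 ± 0.12 (SE; limma adjusted p = 1.64e-05), with a dim PY1 mean, and it fell with heat in *met30-6* by 1.45 ± 0.12 (limma adjusted p = 6.96e-05) as *DAN1* did. *HES1* rose in PY1 by 0.94 ± 0.12 (limma adjusted p = 0.00189), where the *DAN1* difference was −0.02.

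*FET4*, a low-affinity iron transporter gene, fell with heat by 2.61 ± 0.06 in *met30-6* (SE; limma adjusted p = 4.52e-07) and by 1.16 ± 0.06 in PY1 (limma adjusted p = 3.77e-05). *AAC3*, the anaerobic ADP/ATP carrier gene, fell by 1.46 ± 0.07 in *met30-6* (limma adjusted p = 5.72e-06). *CYC7*, the minor cytochrome c gene, rose by 1.93 ± 0.10 in *met30-6* (limma adjusted p = 7.92e-06). With heat in *met30-6* 9 of the 15 fell and 2 rose, against 29.3% and 38.8% of all genes. In PY1 6 fell and 5 rose, against 10.4% and 26.2% of all genes, a total of 11 that was 4 for replicate 1 and 7 for replicate 2 of PY1 at 35 °C left out, and 7 for replicate 1 and 6 for replicate 2 of PY1 at 25 °C. Between strains at 35 °C 7 were higher in *met30-6* and 4 lower, with a median of 0.17 (34.0% and 32.7% of all genes), and the interaction was called higher for 2 and lower for 6 (23.7% and 24.5% of all genes).

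**Figure D4:**
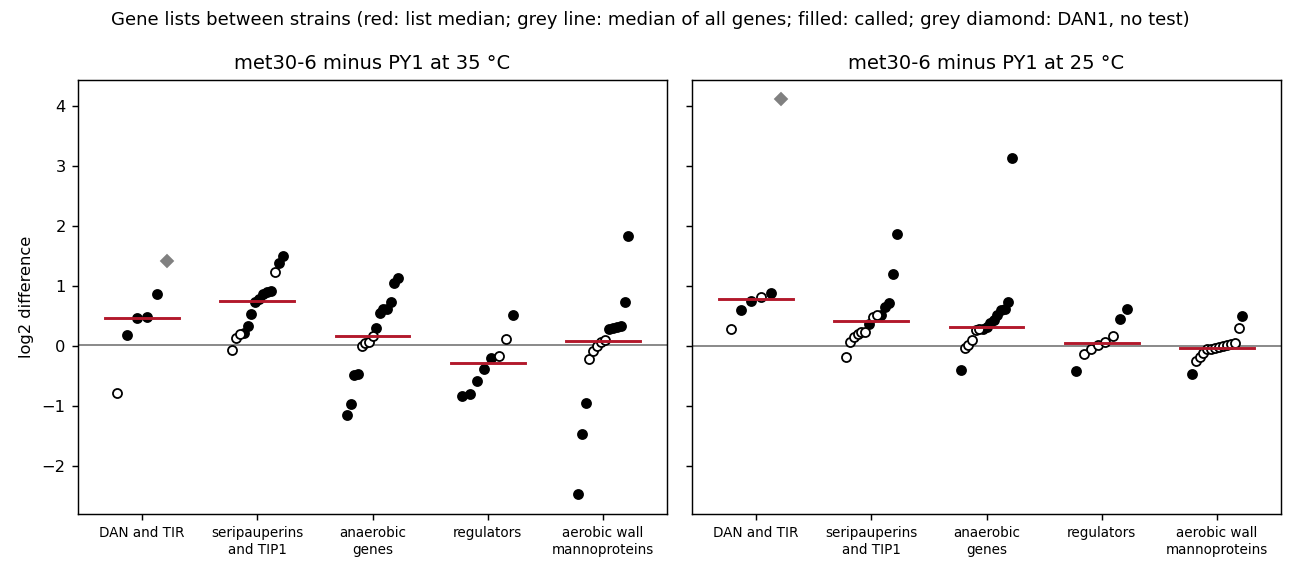
Log2 difference between *met30-6* and PY1 at 35 °C (left) and 25 °C (right) for each measured gene of 5 lists, with filled circles for calls in limma, open circles for the others, a grey diamond for *DAN1*, which has no test, a red line for the list median and a grey line for the median of all genes. The list medians at 25 °C are 0.79 for *DAN* and *TIR* genes with *DAN1* included, 0.42 for seripauperins and *TIP1*, 0.31 for anaerobic genes, 0.046 for regulators and −0.025 for wall mannoproteins of aerobic cells.

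Of 8 genes of known regulators, 2 were higher and 1 lower in *met30-6* at 25 °C, with a median of 0.046, where 12.9% of all genes were called. At 35 °C 1 was higher and 5 lower, with a median of −0.29, where 66.7% of all genes were called and 32.7% were lower. *MOT3*, which encodes a repressor, read 9.91 and 9.95 in *met30-6* at 35 °C, 10.35 and 10.21 in *met30-6* at 25 °C, 10.68 and 10.78 in PY1 at 35 °C, and 10.71 and 10.68 in PY1 at 25 °C. Its strain difference was −0.80 ± 0.07 at 35 °C (SE; limma adjusted p = 7.02e-05) and −0.42 ± 0.07 at 25 °C (limma adjusted p = 0.00885), a call that ended with replicate 2 of *met30-6* at 25 °C left out (−0.35, adjusted p = 0.0606). *HAP1*, a heme-responsive activator gene, was higher by 0.52 ± 0.07 at 35 °C (limma adjusted p = 0.00061) and by 0.63 ± 0.07 at 25 °C (limma adjusted p = 0.00169). *UPC2*, whose product activates the *DAN* and *TIR* genes, differed by −0.16 ± 0.09 at 35 °C (limma adjusted p = 0.151) and by 0.16 ± 0.09 at 25 °C (limma adjusted p = 0.286). It was called at 35 °C with replicate 1 of *met30-6* left out (−0.28, adjusted p = 0.0188). *ECM22*, its paralog, was 0.45 ± 0.05 higher at 25 °C (limma adjusted p = 0.0025) and fell with heat in *met30-6* by 0.58 ± 0.05 (limma adjusted p = 0.000102).

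The corepressor gene *CYC8* was lower in *met30-6* at 35 °C, with a difference of −0.84 ± 0.08 (SE; limma adjusted p = 0.00012), and its partner *TUP1* had −0.38 ± 0.07 (limma adjusted p = 0.00309). At 25 °C neither was called (−0.06 ± 0.08 and 0.02 ± 0.07). *SUT1*, a sterol uptake regulator gene, had −0.59 ± 0.11 at 35 °C (limma adjusted p = 0.00326). *ROX1*, which encodes the heme-dependent repressor, had −0.20 ± 0.07 at 35 °C (limma adjusted p = 0.0363), which ended with array medians centred (−0.13) and with quantile normalisation (−0.12). It also ended with any of 5 arrays left out, at −0.18 for replicate 1 and −0.21 for replicate 2 of *met30-6* at 35 °C, −0.20 for either replicate of *met30-6* at 25 °C and −0.14 for replicate 1 of PY1 at 35 °C. With heat, 6 of the 8 fell and 0 rose in *met30-6*, 1 rose and 1 fell in PY1, and 5 were lower in the interaction, against 29.3%, 10.4% and 24.5% of all genes called lower. Of all genes 38.8% were called higher with heat in *met30-6* and 26.2% in PY1. The *ROX1* fall in *met30-6* lost its call when any *met30-6* array was left out (−0.26 to −0.23). That of *TUP1* did when replicate 2 of *met30-6* at 35 °C was (−0.26). The PY1 count of 2 became 0 when replicate 2 at 35 °C was left out and 1 when replicate 2 at 25 °C was. The interaction count became 3 when replicate 2 of *met30-6* at 35 °C, or replicate 1 at 25 °C, was left out. Transcript levels do not measure the activity of these factors, and their part in the *DAN* and *TIR* values was not tested.

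Of 14 wall mannoproteins of aerobic cells, 1 was higher in *met30-6* at 25 °C (*SPI1*) and 1 lower (*PIR3*), a share near the 12.9% of all genes called, with a median of −0.025, and quantile normalisation called 5. *SPI1*, a stress-induced wall protein gene, had 0.51 ± 0.10 (SE; limma adjusted p = 0.0174), which ended when either *met30-6* array at 25 °C was left out (0.54 for replicate 1, 0.47 for replicate 2). *PIR3* had −0.46 ± 0.10 (limma adjusted p = 0.032), which ended with any 1 of 6 arrays left out, at −0.53 for replicate 1 and −0.40 for replicate 2 of *met30-6* at 25 °C, −0.46 for either replicate of PY1 at 35 °C, and −0.52 for replicate 1 and −0.40 for replicate 2 of PY1 at 25 °C. With heat, *SPI1* rose by 3.63 ± 0.10 in *met30-6* (limma adjusted p = 8.6e-07) and by 2.31 ± 0.10 in PY1 (limma adjusted p = 1.82e-05). In *met30-6* *TOS6* fell by 1.73 ± 0.12 (limma adjusted p = 2.74e-05), and *UTR2*, a chitin transglycosylase gene, fell by 1.59 ± 0.12 (limma adjusted p = 4.04e-05). *CWP1* and *CWP2* were not called between strains at 25 °C (−0.19 and −0.01). At 35 °C *CWP1* was called higher in *met30-6* (0.74) and *CWP2* was not called (−0.0015). With heat *CWP1* was called higher in *met30-6* (1.355) and PY1 (0.43), and *CWP2* in neither (0.05 and 0.04). In all, 7 rose and 2 fell with heat in *met30-6*, 7 rose and 0 fell in PY1, 6 were higher in *met30-6* and 3 lower between strains at 35 °C, and the interaction was called for 3 in each direction. Of all genes 38.8% rose and 29.3% fell with heat in *met30-6*, 26.2% rose and 10.4% fell in PY1, 34.0% were higher and 32.7% lower between strains at 35 °C, and the interaction was called for 48.3%.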

How the data were processed

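Biotin-labelled cRNA from total RNA was hybridised to 8 Affymetrix arrays, 2 for each of 4 groups, per the labels' protocols. The values were log2 expression values processed and deposited by the authors for 5716 probe sets. Base 2 was inferred from their range of 0 to 14.5, and the background correction, summarisation and scaling are named in none of the sources used. Probe sets were named through the platform's annotation, with 12 symbols updated from the R64 gene table, which was used for names and neighbours alone. Of 5498 named probe sets (218 had no name here), the one with the highest mean was kept per gene, leaving 5449 genes. limma 3.58.1 in R 4.3.3 fitted a mean per group to all 8 arrays, with no filter, 4 residual and 2.7 prior degrees of freedom, and two-sided p-values adjusted over all genes within each of 5 comparisons. The fit was tested on simulated data. The number of arrays limits the precision.

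The *DAN* and *TIR* genes and the 5 other lists (regulators, seripauperins with *TIP1*, anaerobic genes, wall mannoproteins of aerobic cells, mating-type markers) were chosen with earlier results of these data known. All 6 genes and all regulators are named. Of each further list except the mating-type markers, the 4 called genes with the largest difference in any comparison are named. *CWP1* and *CWP2* are named in addition. Of neighbours, those called in some comparison and *PDR11* are named, as are the 3 genes of highest r to each *DAN* or *TIR* gene. Alternatives were array medians centred, quantile normalisation, an intensity trend in the variance, leaving out genes with no group mean of 6 or more, all probe sets, the replicate number as a block, and each array left out.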

Additional observations from a re-analysis of the deposited data

Results flagged for a closer look

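The heat difference in *met30-6* differed from that in PY1, by limma's test of the interaction, for *TIR3* (−1.60) and *TIR4* (−0.70). The same difference of *DAN1*, −2.69, is a description with no test, because the gene was picked for it. Among the regulator genes it differed for *CYC8* (−0.78), *SUT1* (−0.66), *TUP1* (−0.40), *MOT3* (−0.38) and *ECM22* (−0.32). It also differed for the seripauperin genes *PAU7* (0.90), *PAU3* (0.71) and *PAU24* (−0.33), for the anaerobic genes *HES1* (−2.40), *FET4* (−1.46), *CYC7* (1.52) and *AAC3* (−1.25), and for the wall protein genes *TOS6* (−2.42), *UTR2* (−1.42), *SPI1* (1.32) and *PIR3* (0.75). Of the neighbours it was called for *YJR149W* (0.72), *PRE1* (0.59), *DOT5* (0.38) and *YER010C* (−0.34).

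Leaving out single arrays ended some of these calls. The call of *SUT1* ended when replicate 2 of *met30-6* at 35 °C was left out (−0.58) and that of *YER010C* when replicate 1 of *met30-6* at 25 °C was (−0.34, adjusted p = 0.0542). *TUP1* lost its call on leaving out the same arrays, at −0.36 for the array at 35 °C and −0.39 for that at 25 °C. *MOT3* lost it on leaving out replicate 1 of *met30-6* at 35 °C (−0.36) or at 25 °C (−0.31), or replicate 2 of PY1 at 35 °C (−0.33). *PAU24* lost it on leaving out any array but replicate 1 of PY1 at 25 °C, at values of −0.36 to −0.22. *PAU3* lost it on leaving out either array of *met30-6* or of PY1 at 35 °C, or replicate 1 of PY1 at 25 °C, at values of 0.65 to 0.77. With quantile normalisation *ECM22* (−0.18) and *PAU3* (0.42) lost their calls, with an intensity trend *PAU3* and *PAU24* did, and *PAU24* also did with array medians centred (−0.27), with all probe sets and with the replicate number as a block. Groups of 2 arrays are too small for a test of outlying arrays.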

How the results depend on the processing

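Each of the 30 differences of the *DAN* and *TIR* genes, *DAN1* included, was recomputed under 14 alternatives, 8 of which left out 1 array. *DAN1* was picked for its pattern, so its share of the totals below is a description and no support. Its values kept direction and side of the threshold in all 14 alternatives for each comparison but PY1 heat. There they kept the side in 13 of 14, but not always the direction, and ran from −0.36 to 0.04. Of the 420 values, 376 kept their direction and side of the threshold (uncalled values may change sign), 23 lost the call, 21 gained it and 0 of those called on either side changed direction. The number of the 6 genes, *DAN1* included, called in PY1 heat, 1 as deposited, was 3 with quantile normalisation and 2 with an intensity trend, and 1 to 2 with each array left out. The number called between strains at 35 °C, 5 as deposited, was 3 to 5 with each array left out (3 for replicate 2 of *met30-6* and for replicate 1 of PY1 at 35 °C). Over all genes, the strain difference at 25 °C gave 702 calls as deposited, 1064 with quantile normalisation, and 368 and 374 without *met30-6* 25 °C replicates 1 and 2. PY1 heat gave 1998, but 1298 and 1119 without PY1 35 °C replicates 1 and 2. For the other genes named, *TIP1*, *CWP1*, *CWP2* and the genes named only for their r aside, 1 of 2095 values reversed. It was *PAU3* in *met30-6* heat, at −0.15 with quantile normalisation. Groups shared replicate numbers, but the deviations of same-numbered arrays correlated at −0.182 to 0.109, so the numbers were not taken as pairs. With the replicate number as a block, the *TIR2* fall in *met30-6* lost its call (adjusted p = 0.0535), *DAN4* heat in *met30-6* gained it (0.50, adjusted p = 0.0324), and no other call of the 6 genes changed. The cause of these changes was not tested.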
